A study of Caenorhabditis elegans with 6 samples.

Results

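The genes described here encode molecular chaperones and co-chaperones of Caenorhabditis elegans, in 4 families: prefoldin subunits (pfd), subunits of the CCT chaperonin (cct), J-domain proteins (dnj) and heat shock proteins (hsp). They were chosen by a rule on the symbol, with earlier results of these data known. Each symbol is pfd-, cct-, dnj- or hsp- followed by a number, and each gene is named by a probe set that names no other gene. This rule gave 64 of the 17118 genes measured: 6 pfd, 8 cct, 29 dnj and 21 hsp genes. Each gene was taken at the brightest of its probe sets over all 6 arrays.

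The 6 arrays measured poly(A) RNA from A-class motor neurons, which drive backward movement through the classes DA and VA, in larvae of the L2 stage. There were 3 arrays of unc-37(e262) mutants and 3 of the wild-type strain N2, which the labels call biological replicates, all grown at 25 °C on a lawn of the Escherichia coli strain Na22. In both genotypes the unc-4 promoter drove the poly(A)-binding protein PAB-1 with a 3X FLAG tag, and the transcripts it held were pulled down. They were amplified in 2 rounds of in vitro transcription and carried a biotin label. The UNC-37 protein is a Groucho-type corepressor, the partner of the homeodomain protein UNC-4, and the comparison asks which RNA levels its mutation changes in these neurons. The labels give the allele as the genotype of the larvae, do not say what e262 alters, and do not say whether the genotypes were handled side by side. The labels' array numbers were 89 to 98 for unc-37 and 73 to 85 for wild type, so an order of handling that these numbers may record cannot be told apart from genotype.

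Chaperones bind proteins that are not yet folded or have lost their fold. Hsp70 proteins hold short stretches of a chain and release them as they use ATP, J-domain proteins bring them clients and start that use of ATP, Hsp90 finishes the folding of many kinases and receptors, and small heat shock proteins hold unfolded chains without using ATP. Prefoldin and the ring-shaped CCT chaperonin form a line of their own, in which prefoldin passes new actin and tubulin chains to CCT. Neurons depend on these systems for the tubulin of their axons and for the protein cycles of their synapses.

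Levels are log2 intensities. The median of an array lay between 5.65 and 5.71 on this scale, and the number of arrays, 3 per genotype, limits the precision. A change is the mean of unc-37 minus the mean of wild type on the log2 scale, with its standard error (SE) from the moderated fit of limma. A gene was called, here written as rose or fell, at a Benjamini-Hochberg adjusted p below 0.05 over all 22548 probe sets. For a gene alone, an exact permutation test of 3 arrays against 3 cannot go below p = 0.1, so each call also rests on the spread shared across probe sets. The origin of the pulled-down RNA was checked by markers. All 6 genes of A-class and cholinergic motor neurons rose in unc-37, by 0.94 to 2.74, with summed intensities of 3383 to 3960 in unc-37 arrays and 1211 to 1701 in wild-type arrays. The largest rise was that of unc-4 (2.74), whose promoter drove the tagged PAB-1, and the next was that of cha-1 (1.32). Whether the level of tagged PAB-1 differed between the genotypes was not tested. Of 12 genes that all neurons use, 9 rose and none fell, with sums of 10691 to 11498 in unc-37 and 6373 to 7531 in wild type. Of 7 hypodermis and cuticle genes, dpy-13 fell (-0.91, adjusted p = 0.0451) and none rose, with sums of 7083 to 12704 in unc-37 and 13367 to 20171 in wild type. At an unadjusted p below 0.05, 3 of these genes were lower, dpy-13 among them, and 1 was higher, dpy-7 (0.59), so the list did not move as one. With 1 array left out the calls numbered 5 or 6 for the A-class genes and 2 to 7 for the genes of all neurons, lowest at 2 without unc-37 replicate 1 and without wild-type replicate 2. The call of dpy-13 ended when unc-37 replicate 2 or 3 or wild-type replicate 1 or 2 was left out, where no hypodermis gene was called. None of 7 body wall muscle, 8 intestine, 5 pharynx, 4 germline and 3 GABA neuron genes was called by limma; at an unadjusted p below 0.05 there were 1, 1, 1, 0 and 1 such genes. Muscle sums lay at 8288 to 8983 in unc-37 and 8311 to 10173 in wild type, so markers of another tissue were bright on the arrays of both genotypes. Fewer cells of a type, less RNA per cell and a pull-down that held more or less RNA of other tissues cannot be told apart in such samples. What part these shifts have in the chaperone values was not tested.

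Of the 64 chaperone genes, 4 rose in unc-37 and none fell: the prefoldin gene pfd-6, the J-domain genes dnj-21 and dnj-8, and the small heat shock gene hsp-17. That is 6.25% of the members. Among all genes, 3.94% rose and 2.81% fell, so 6.75% were called in either direction, and the members' share was close to that background. At an unadjusted p below 0.05, 20 members were higher and 3 lower, against 11.5% higher and 9.91% lower among all genes. Every unc-37 array lay above every wild-type array for 15 members (23.4%), as for 12.6% of all genes, and below for 4 members, as for 13.7% of all genes.

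The changes were small and leaned to one side. The change was above 0 for 49 of the 64 members (76.6%) and 46.6% of all genes, with medians of 0.19 over the members and -0.01 over all genes. The background itself shifted with brightness. Over the 7575 genes with a mean level of at least 6, 56.6% lay above 0 and the median change was 0.045. Of these bright genes, 7.59% rose and 20.6% had arrays apart with unc-37 higher. Of the 46 members that bright, 39 (84.8%) lay above 0, with a median of 0.25. The members' median less that of all genes was 0.2 without this filter and 0.204 with it, so the contrast did not shrink among bright genes. The 4 families differed in their medians, at 0.39 for pfd, 0.20 for dnj, 0.13 for cct and 0.07 for hsp, a description with no test of the differences between families. The members' median moved to 0.13 with a second quantile normalization and 0.21 with each array centred on its median, and the numbers of genes above 0 were then 6 and 6 for pfd, 24 and 25 for dnj, 5 and 5 for cct and 12 and 13 for hsp.

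The count of 4 calls was not stable when arrays were left out. It was 0 without unc-37 replicate 1, 1 without unc-37 replicate 2 and 2 without unc-37 replicate 3. Of the wild-type arrays, leaving out replicate 1 or replicate 2 gave 0, and leaving out replicate 3 gave 7 with 1 member lower besides. In the 3 cases with no call by limma, 20, 12 and 12 members were still higher at an unadjusted p below 0.05, and 2 were lower in each. With the prior variance allowed to follow intensity, only pfd-6 was called, and with a fold of at least 1.5 as a further condition pfd-6 was again the only member.

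**Figure D1:**
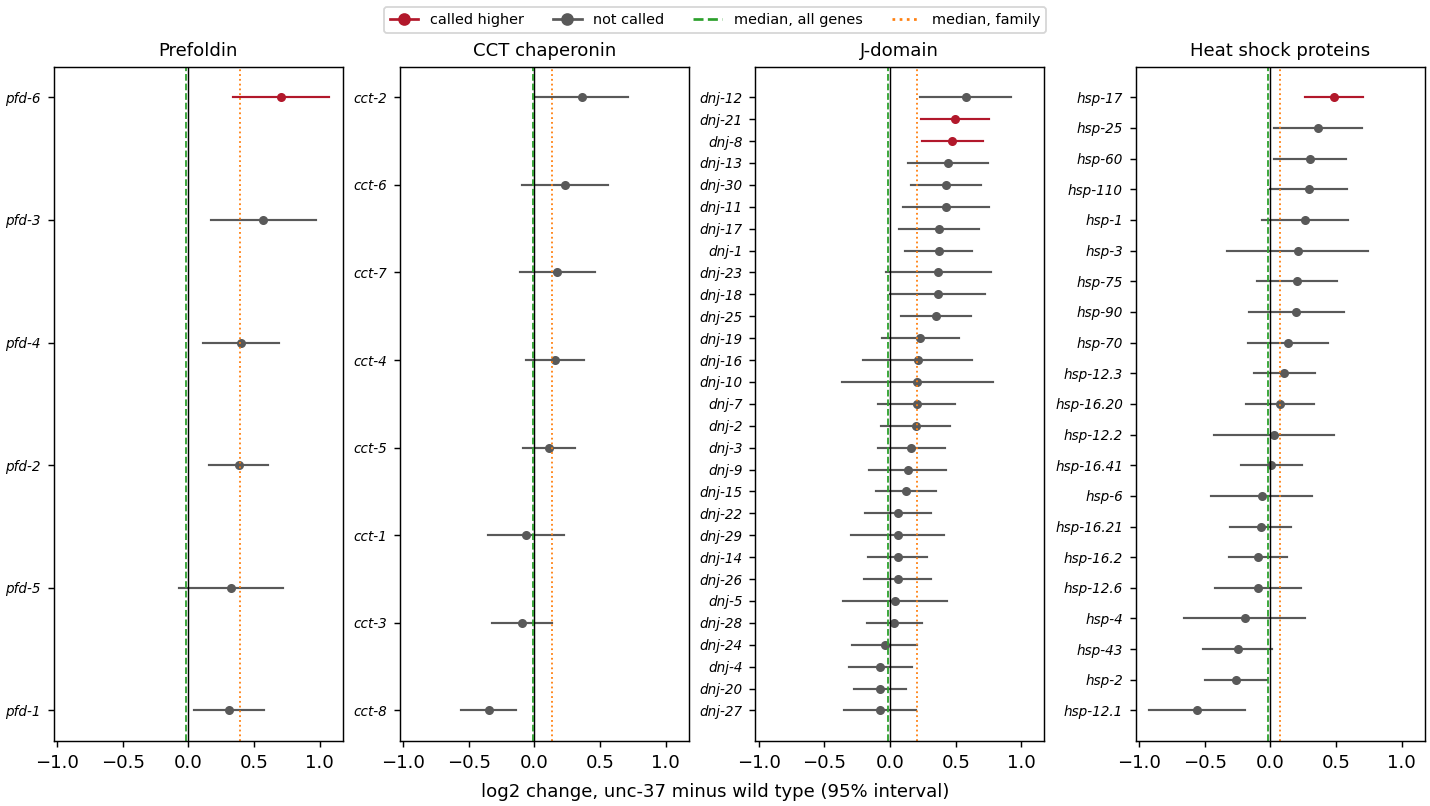
Change in log2 level, unc-37 minus wild type, for each of the 64 chaperone genes, with 95% intervals from the moderated fit and 3 arrays per genotype. Red marks the 4 genes called higher, the dashed green line the median over all genes (-0.01) and the dotted orange line the median of the family, which lies farthest right for prefoldin (0.39).

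Prefoldin is a complex of 6 kinds of subunit, shaped like a jellyfish, that takes actin and tubulin chains from the ribosome to CCT. All 6 genes were measured, each by 1 probe set, and all 6 changes lay above 0, between 0.31 and 0.71; this held under every alternative run. One was called. pfd-6 was at 7.0, 7.53 and 7.16 in unc-37 arrays and at 6.69, 6.28 and 6.59 in wild-type arrays. The groups did not overlap, and pfd-6 rose by 0.71 ± 0.16 (SE, n = 3 per genotype here and throughout), or 1.63-fold, with a 95% interval of 1.27 to 2.11 and adjusted p = 0.038. This was the largest change among the 64 members, and its call ended without any of the 6 arrays in turn (adjusted p = 0.053 to 0.129).

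The other prefoldin subunits missed the threshold. pfd-2 was at 9.22, 9.47 and 9.30 in unc-37 and 8.89, 9.02 and 8.94 in wild type, groups that lay apart, with a change of 0.38 ± 0.10 (adjusted p = 0.0578; 0.0491 when the p-values were adjusted over genes with averaged probe sets). pfd-3, also known as von Hippel-Lindau binding protein 1 in mammals, was at 6.31, 6.86 and 6.30 in unc-37 and 5.95, 5.69 and 6.12 in wild type (0.57 ± 0.17, adjusted p = 0.103). pfd-4 was at 8.30, 8.43 and 8.13 in unc-37 and 7.71, 7.84 and 8.09 in wild type (0.40 ± 0.13, adjusted p = 0.11). In both genes the lowest unc-37 array lay above the highest wild-type array, in pfd-4 by a narrow margin, set by wild-type replicate 3. pfd-4 was called without that array (0.51, adjusted p = 0.0488) and with weighted arrays (0.45, adjusted p = 0.0398). pfd-1 was at 8.98, 8.68 and 8.71 in unc-37 and 8.44, 8.37 and 8.64 in wild type (0.31 ± 0.12, adjusted p = 0.18). pfd-5 was at 9.24, 9.70 and 9.08 in unc-37 and 9.26, 8.93 and 8.88 in wild type, and was the only prefoldin gene whose groups overlapped (0.32 ± 0.17, adjusted p = 0.342). So 5 of 6 prefoldin genes had arrays apart with unc-37 higher, against the 12.6% of all genes and 20.6% of bright genes given above. The 6 genes share arrays and are not independent, and unc-37 replicate 2 was the highest unc-37 array for 5 of them, pfd-1 being the exception. Without that replicate the median of the family was 0.35, against 0.39 with it, and no prefoldin gene was called by limma, though 5 had an unadjusted p below 0.05.

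The CCT chaperonin is a double ring of 8 kinds of subunit that folds actin and tubulin in a closed chamber. All 8 genes, cct-1 to cct-8, were measured, and limma called none of them; cct-2 was higher and cct-8 lower at an unadjusted p below 0.05. The gene nearest to a call was cct-8, at 6.50, 6.36 and 6.41 in unc-37 and 6.76, 6.87 and 6.68 in wild type. Its groups lay apart with unc-37 lower, a change of -0.35 ± 0.09 (adjusted p = 0.0636), and it was called lower only when arrays were weighted (adjusted p = 0.0477) or the threshold was set at 0.1. cct-2 was at 10.01, 10.17 and 10.31 in unc-37 and 9.48, 9.88 and 10.05 in wild type, with overlap (0.36 ± 0.15, adjusted p = 0.225).

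The remaining 6 cct genes lay closer to 0. The changes were 0.23 ± 0.14 for cct-6, 0.18 ± 0.13 for cct-7, 0.16 ± 0.10 for cct-4 and 0.11 ± 0.09 for cct-5, and the adjusted p was between 0.398 and 0.532. In all 4 the arrays of the genotypes overlapped, and wild-type replicate 3 was the highest wild-type array. cct-1 was at 11.07, 10.86 and 11.33 in unc-37 and 11.10, 11.15 and 11.21 in wild type (-0.06 ± 0.13, adjusted p = 0.829). Its 2 other probe sets had changes of 0.14, with groups apart and unc-37 higher, and 0.26, with overlap, so its sign was not settled. cct-3 was at 4.64, 4.80 and 4.54 in unc-37 and 4.69, 4.73 and 4.85 in wild type, below the array median throughout, with a change of -0.10 ± 0.10 (adjusted p = 0.646). The other probe sets of cct-2, cct-4, cct-5, cct-6 and cct-7 also had changes above 0, from 0.25 to 0.47, and none was called. The 95% intervals of the 8 genes ran from -0.56, the lower bound for cct-8, to 0.71, the upper bound for cct-2.

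**Figure D2:**
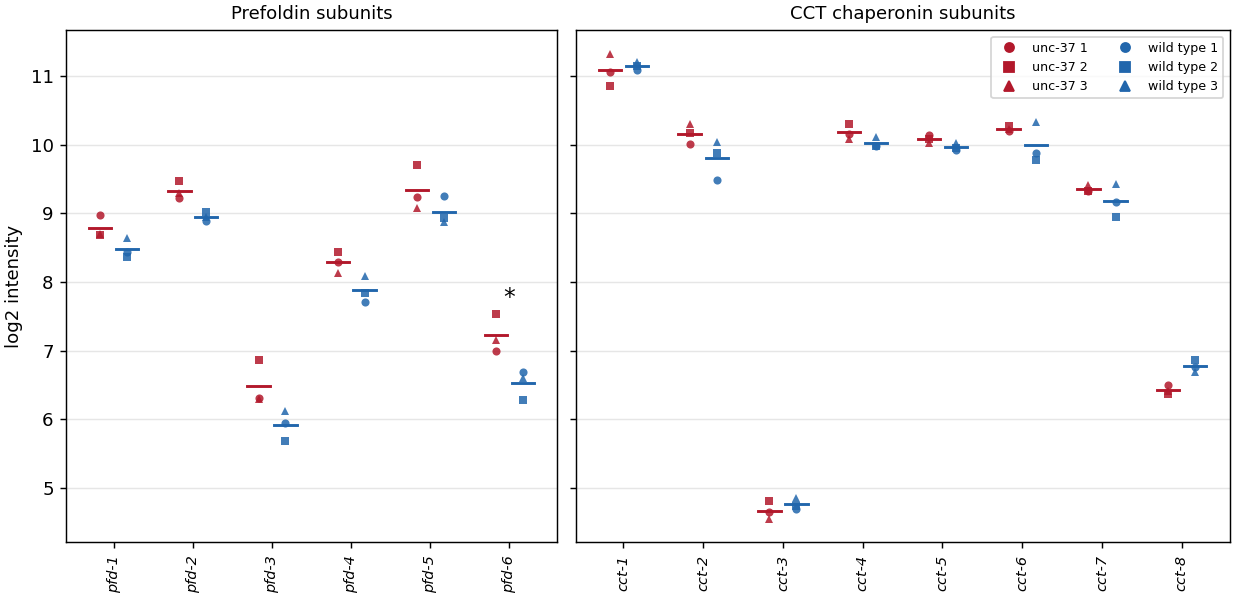
Log2 intensity of the 6 prefoldin and 8 CCT genes on each array, with unc-37 (red) left of wild type (blue), 1 symbol per replicate and a bar at the mean of 3 arrays. An asterisk marks the 1 gene called, pfd-6; in 5 prefoldin genes all red points lie above all blue points, and in cct-8 all lie below.

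J-domain proteins pick the clients of Hsp70 and switch on its ATP cycle, and each works at its own place in the cell. Of 29 dnj genes, 2 rose and none fell. The change was above 0 for 25 of them, with a median of 0.20, and 8 had arrays apart with unc-37 higher and none with unc-37 lower. Another 8 besides the 2 called were higher at an unadjusted p below 0.05, and none was lower. As shares of the family these are 6.9% called higher, 86.2% above 0 and 27.6% with arrays apart and unc-37 higher, against 3.94%, 46.6% and 12.6% of all genes, and 7.59%, 56.6% and 20.6% of the bright genes. dnj-21 is the counterpart of the TIM14 (PAM18) subunit of the motor that draws proteins into mitochondria. It was at 7.68, 7.71 and 7.52 in unc-37 and 7.14, 6.97 and 7.31 in wild type, and rose by 0.50 ± 0.11, or 1.41-fold (adjusted p = 0.0387). dnj-8 was at 8.78, 8.92 and 8.79 in unc-37 and 8.23, 8.33 and 8.49 in wild type, and rose by 0.48 ± 0.10, or 1.39-fold (adjusted p = 0.0294). In both genes the lowest unc-37 array lay above the highest wild-type array. The probe set of dnj-8 is of the _x_at kind, which may hybridise with related transcripts as well, and its other 2 probe sets had changes of 0.56 and 0.52 without a call (adjusted p = 0.103 and 0.182). The call of dnj-21 ended without unc-37 replicates 1 and 2 and wild-type replicates 1 and 2 (adjusted p = 0.106 to 0.134), and that of dnj-8 without any array other than wild-type replicate 3 (0.0554 to 0.111). dnj-8 also lost its call when its 3 probe sets were averaged (0.52, adjusted p = 0.0587).

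The cytosolic J-domain proteins that serve general folding are dnj-12, dnj-13 and dnj-19. dnj-12, of the DNAJA type, was at 7.87, 8.01 and 7.66 in unc-37 and 7.05, 7.19 and 7.57 in wild type. This was the largest change of the family, 0.57 ± 0.15, with groups apart, and it missed the threshold (adjusted p = 0.064). dnj-12 was called without wild-type replicate 3, its highest wild-type array (0.73, adjusted p = 0.0174), and with weighted arrays (0.64, adjusted p = 0.0199). A dimmer probe set of dnj-12 had a change of 0.02. dnj-13, of the DNAJB1 type that helps Hsp70 take apart aggregates, was at 9.95, 10.38 and 10.09 in unc-37 and 9.62, 9.61 and 9.87 in wild type (0.44 ± 0.13, adjusted p = 0.0973). Its second probe set gave 0.54 (adjusted p = 0.131), and its groups too lay apart. dnj-19, also of the DNAJA type, had a change of 0.23 ± 0.13 with overlapping arrays (adjusted p = 0.357).

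At the synapse, dnj-14 is the counterpart of cysteine string protein, a chaperone on synaptic vesicles that keeps SNAP-25 folded. It was at 6.34, 6.46 and 6.37 in unc-37 and 6.43, 6.19 and 6.38 in wild type, groups that overlapped, with a change of 0.06 ± 0.10 and a 95% interval of -0.16 to 0.28 (adjusted p = 0.794). Its second probe set had a change of -0.28 (adjusted p = 0.282). Beside it, ric-4, the SNAP-25 gene, rose by 0.75 (adjusted p = 0.0279) and the vesicle gene rab-3 by 0.90 (0.00667). These are 2 of the 9 genes that rose in the list of 12 that all neurons use. The other 3 were not called: snb-1 (0.36, adjusted p = 0.0891), unc-64 (0.26, 0.397) and unc-10 (0.18, 0.414). How dnj-14 compares with the genes of that list was not tested. dnj-25, the counterpart of auxilin, with which Hsp70 strips clathrin from vesicles, was at 6.92, 7.20 and 7.27 in unc-37 and 6.67, 6.89 and 6.79 in wild type. Its groups lay apart (0.35 ± 0.12), and it was not called (adjusted p = 0.131), nor was its second probe set (0.26, 0.161).

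Of the 4 J-domain genes listed here for the endoplasmic reticulum, a list that need not be complete, 3 had changes between -0.08 and 0.06, and dnj-7 was higher. dnj-20, of the DNAJB11 type that works with BiP, was at 9.44, 9.42 and 9.36 in unc-37 and 9.46, 9.41 and 9.57 in wild type (-0.07 ± 0.09, adjusted p = 0.696). dnj-27, of the ERdj5 type, had the lowest change of the family at -0.08 ± 0.12 (adjusted p = 0.781), at a mean level of 4.86, below the array median. A brighter probe set that names dnj-27 together with Y73B6BL.12 had a change of 0.04 (adjusted p = 0.95). dnj-29, the counterpart of SEC63 of the import channel, was at 0.06 ± 0.15 and dnj-7, of the DNAJC3 type, at 0.20 ± 0.13. At their brightest probe sets, none of these 4 genes was called by limma or had an unadjusted p below 0.05. A second, dimmer probe set of dnj-20 had a change of -0.29 (unadjusted p = 0.0259, adjusted p = 0.169). On that probe set the groups lay apart with unc-37 lower, at a mean level of 4.35, below the array median. In mitochondria, dnj-10, a relative of Tid1, was at 8.15, 7.72 and 7.99 in unc-37 and 7.42, 7.44 and 8.39 in wild type. The groups overlapped through wild-type replicate 3, which lay above every other array (0.21 ± 0.25, adjusted p = 0.71).

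Of the other dnj genes, dnj-1 was at 9.10, 9.14 and 9.31 in unc-37 and 8.83, 8.64 and 8.96 in wild type, with groups apart (0.37 ± 0.11, adjusted p = 0.0949). Its second probe set gave 0.48 (adjusted p = 0.0633), and dnj-1 was called when the probe sets of a gene were averaged (0.43, adjusted p = 0.0438). dnj-30 was at 6.66, 6.26 and 6.57 in unc-37 and 6.09, 6.02 and 6.10 in wild type (0.43 ± 0.12, adjusted p = 0.0717). It was called with weighted arrays (0.49, adjusted p = 0.0246), with centred arrays (0.46, 0.0498) and without unc-37 replicate 2 (0.55, 0.0255). dnj-1 and dnj-30 had arrays apart with unc-37 higher, as did dnj-11 (0.43). dnj-11 was called with weighted arrays (0.52, adjusted p = 0.04) and without wild-type replicate 3 (0.58, 0.0246). The 14 members of the family not named so far (dnj-2, dnj-3, dnj-4, dnj-5, dnj-9, dnj-15, dnj-16, dnj-17, dnj-18, dnj-22, dnj-23, dnj-24, dnj-26 and dnj-28) had overlapping arrays and changes from -0.07 to 0.38. Among these, dnj-17 and dnj-18 had an unadjusted p below 0.05, and dnj-17 was called with weighted arrays (0.46, adjusted p = 0.0475).

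**Figure D3:**
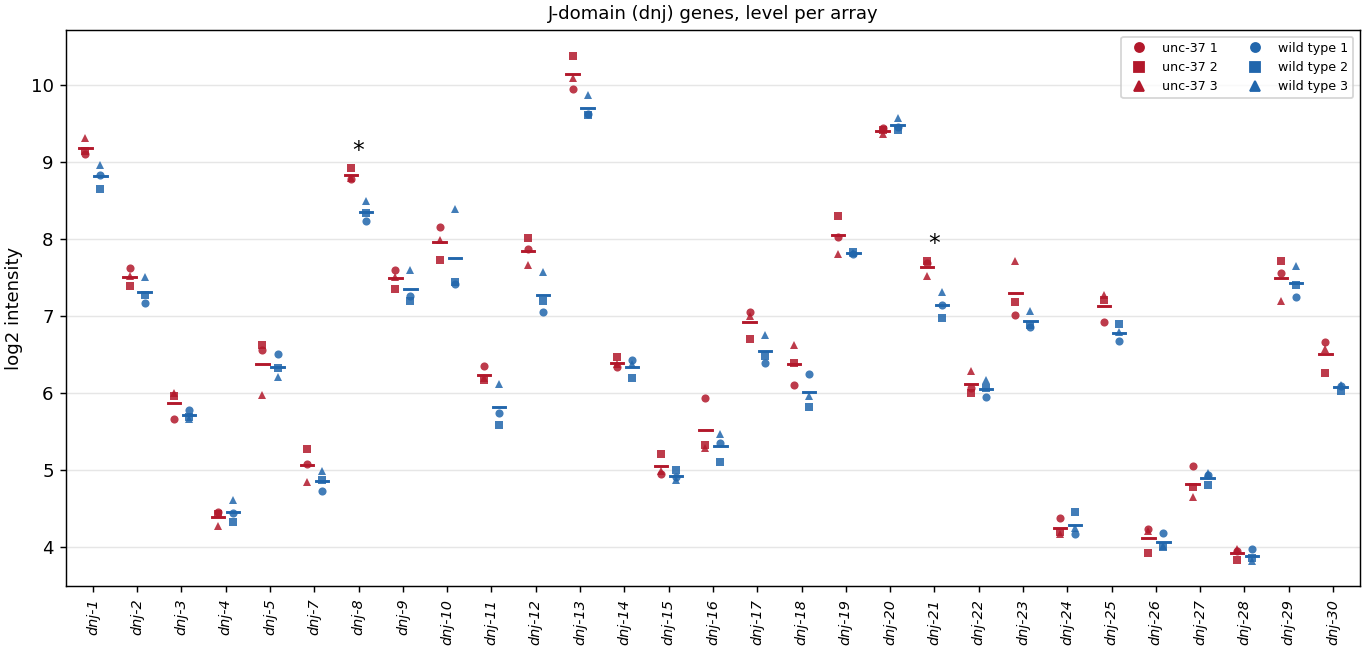
Log2 intensity of the 29 J-domain genes on each array, with unc-37 (red) left of wild type (blue), 1 symbol per replicate and a bar at the mean of 3 arrays. Asterisks mark dnj-8 and dnj-21, the genes called; in dnj-10 wild-type replicate 3 stands above all other points.

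Of 21 hsp genes, hsp-17 rose and none fell. The change was above 0 for 13 of them, with a median of 0.07. Groups lay apart in 2 genes with unc-37 higher and in 3 with unc-37 lower, and 4 were higher and 2 lower at an unadjusted p below 0.05. As shares of the family these are 4.76% called higher, 61.9% above 0 and 9.52% with arrays apart and unc-37 higher. Among all genes they are 3.94%, 46.6% and 12.6%, and 56.6% of the bright genes lay above 0. So the called share and the share with arrays apart were near the background of all genes, and the share above 0 was larger. At an unadjusted p below 0.05, 11.5% of all genes were higher and 9.91% lower.

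The Hsp70 class held 5 genes, and limma called none of them; none had an unadjusted p below 0.05. hsp-1, the constitutive Hsc70 of the cytosol, was at 10.12, 10.67 and 10.27 in unc-37 and 10.05, 10.04 and 10.17 in wild type (0.26 ± 0.14, adjusted p = 0.342). Only unc-37 replicates 2 and 3 lay above all wild-type arrays, and a change of 1.5-fold at most was within its 95% interval (0.959 to 1.5). Outside that class, hsp-110, a relative that exchanges the nucleotide of Hsp70, was at 9.85, 10.25 and 9.99 in unc-37 and 9.64, 9.66 and 9.91 in wild type (0.29 ± 0.13, adjusted p = 0.238). In the class again, hsp-70, a heat-inducible member, lay between 4.27 and 4.78 on all 6 arrays, below the array median, with a change of 0.14 ± 0.13 (adjusted p = 0.628).

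hsp-3 and hsp-4 encode BiP, the Hsp70 of the endoplasmic reticulum, and hsp-4 is the one known for strong induction by the unfolded protein response. hsp-3 was at 8.30, 8.72 and 7.73 in unc-37 and 7.84, 7.98 and 8.31 in wild type (0.21 ± 0.23, adjusted p = 0.681). hsp-4 was at 7.85, 8.26 and 7.58 in unc-37 and 7.74, 8.22 and 8.32 in wild type (-0.20 ± 0.20, adjusted p = 0.648). Both overlapped widely, and in both unc-37 replicate 3 was the lowest of the 6 arrays. In mitochondria, hsp-6, the Hsp70 of the matrix, was at 11.40, 11.19 and 10.86 in unc-37 and 11.21, 10.97 and 11.47 in wild type (-0.06 ± 0.17, adjusted p = 0.874). Its second probe set gave 0.11, so no direction was settled. The chaperonin gene hsp-60 was at 7.72, 7.82 and 7.83 in unc-37 and 7.36, 7.37 and 7.74 in wild type (0.30 ± 0.12, adjusted p = 0.198). It was called without wild-type replicate 3 (0.43, adjusted p = 0.0434), the array that closed the gap, and its dimmer probe set was at -0.01.

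Hsp90 of the cytosol, encoded by hsp-90 (formerly daf-21), was at 11.36, 11.46 and 10.93 in unc-37 and 10.88, 11.03 and 11.25 in wild type, with overlap (0.20 ± 0.16, adjusted p = 0.543). A second probe set of hsp-90, nearly as bright, gave 0.15 (adjusted p = 0.389), and on it the groups lay apart with unc-37 higher. hsp-75, the mitochondrial member of the class, had a change of 0.20 ± 0.13 (adjusted p = 0.44). hsp-2, placed in none of the hsp classes used here, was at -0.26 ± 0.10, with groups apart and unc-37 lower (adjusted p = 0.192).

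Of 11 small heat shock genes, 1 rose and none fell, and their median change was 0.01. hsp-17 was at 9.22, 9.35 and 9.21 in unc-37 and 8.80, 8.65 and 8.88 in wild type. The groups lay well apart, and hsp-17 rose by 0.49 ± 0.10, or 1.4-fold, with a 95% interval of 1.2 to 1.63 and adjusted p = 0.0231, the lowest adjusted p among the members. Its call ended without unc-37 replicate 1 or 2 and without wild-type replicate 1 or 2 (0.0687 to 0.0941). hsp-25 was at 8.85, 9.32 and 8.89 in unc-37 and 8.70, 8.49 and 8.79 in wild type, apart but not called (0.36 ± 0.15, adjusted p = 0.207). hsp-12.1 had the lowest change of all members, with 6.83, 7.15 and 6.93 in unc-37 and 7.80, 7.59 and 7.20 in wild type. Its change of -0.56 ± 0.16 missed the threshold (adjusted p = 0.0851); it was called lower without wild-type replicate 3 (-0.72, adjusted p = 0.0191) and with weighted arrays (-0.67, adjusted p = 0.0247). hsp-43 was at -0.25 ± 0.12, with groups apart and unc-37 lower (adjusted p = 0.27). hsp-12.2 was at 10.45, 10.78 and 10.15 in unc-37 and 10.47, 10.09 and 10.75 in wild type, spread equally in both (0.03 ± 0.20, adjusted p = 0.963).

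The heat-inducible hsp-16 genes, which reporters use to read the heat shock response, were measured by 4 probe sets of their own, which lay below the array median on every array, and by 2 shared ones. hsp-16.2 lay at 4.74, 4.55 and 4.77 in unc-37 and 4.81, 4.71 and 4.83 in wild type (-0.09 ± 0.10, adjusted p = 0.643). hsp-16.41 lay at 3.74, 3.81 and 4.0 in unc-37 and 3.91, 3.85 and 3.76 in wild type (0.01 ± 0.10, adjusted p = 0.973). The 95% intervals of the fold of these 2 genes ran from 0.804 to 1.18. hsp-16.20 and hsp-16.21 lay between 3.73 and 4.21. A probe set that names hsp-16.1 and hsp-16.11 together had a change of 0.10 (adjusted p = 0.718) and one that names hsp-16.48 and hsp-16.49 together 0.20 (0.75), and neither was called. That of hsp-16.48 and hsp-16.49 was brighter, at 5.49, 6.25 and 5.69 in unc-37 and 6.07, 5.73 and 5.03 in wild type, above the array median on 4 of 6 arrays and with groups that overlapped. With hsp-12.3 and hsp-12.6, at 0.11 and -0.09, this accounts for the family.

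**Figure D4:**
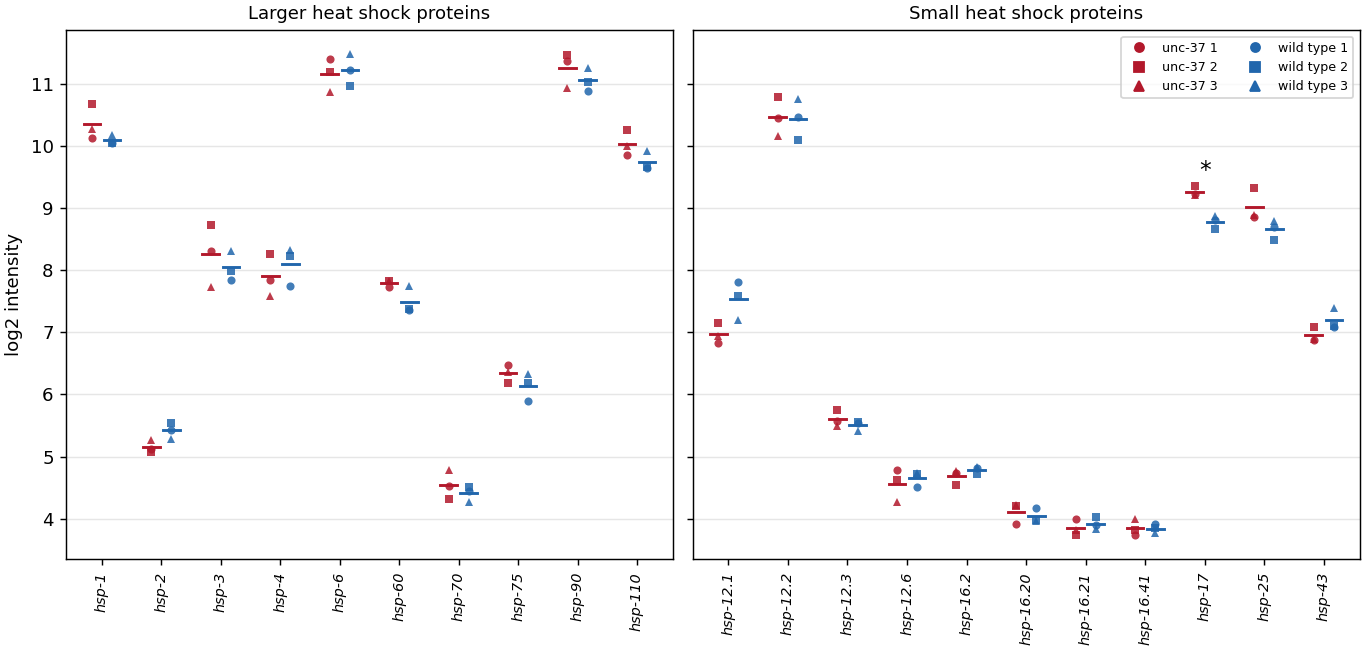
Log2 intensity of the 21 heat shock genes on each array, the larger proteins on the left and the small heat shock proteins on the right, with unc-37 (red) left of wild type (blue), 1 symbol per replicate and a bar at the mean of 3 arrays. The asterisk marks hsp-17, the gene called; the 4 hsp-16 genes shown lie below 5 on all arrays.

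Other genes of protein folding were taken from 4 lists. Of 13 measured genes in a list of cytosolic folding factors, limma called none. Of these, 4 were higher and 2 lower at an unadjusted p below 0.05, and the median change was 0.11. sti-1, which links Hsp70 and Hsp90, was at -0.17 ± 0.24 (adjusted p = 0.757). Of 9 folding genes of the secretory pathway, limma called none and none had an unadjusted p below 0.05, with a median of 0.07. enpl-1, the Hsp90 of the endoplasmic reticulum, was at 9.62, 9.76 and 9.06 in unc-37 and 9.12, 9.56 and 9.66 in wild type (0.04 ± 0.20, adjusted p = 0.943).

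Of 12 regulators of stress responses, hsb-1 rose and dve-1 fell. hsb-1 encodes a small protein that binds and restrains the heat shock factor HSF-1. It was at 8.55, 8.60 and 8.84 in unc-37 and 8.12, 7.95 and 8.23 in wild type, groups apart, a rise of 0.56 ± 0.12 (adjusted p = 0.0262). dve-1, a homeodomain gene of the mitochondrial unfolded protein response, was at 7.43, 7.73 and 7.67 in unc-37 and 8.01, 8.33 and 8.24 in wild type. It too had groups apart, and fell by 0.58 on the log2 scale (SE 0.12, adjusted p = 0.0267). hsf-1 itself was at 6.25, 6.51 and 6.33 in unc-37 and 6.45, 6.13 and 6.22 in wild type (0.10 ± 0.12, adjusted p = 0.708). Of the 4 measured genes for assembly of acetylcholine receptors, ric-3, a chaperone of those receptors in the endoplasmic reticulum, rose, and the other 3 were not called. ric-3 was at 8.29, 8.57 and 8.37 in unc-37 and 7.81, 7.83 and 7.51 in wild type (0.69 ± 0.12, adjusted p = 0.0142). The call of hsb-1 ended with a second quantile normalization (adjusted p = 0.0619), with a trend in the prior variance (0.0519) and without any array other than wild-type replicate 3 (0.057 to 0.101). That of dve-1 ended with averaged probe sets (0.0659), without unc-37 replicate 1 (0.0954), and when replicate 2 (0.105) or 3 (0.0542) of the wild type was left out.

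Within a genotype, the arrays differed in step over many chaperone genes. Wild-type replicate 3 was the highest of the wild-type arrays for 43 of 64 members (67.2%), as for 32.5% of all genes and 43.2% of genes with a mean of at least 6. It was the highest for 7 of 8 cct, 19 of 29 dnj, 14 of 21 hsp and 3 of 6 pfd genes. For 6 of 6 A-class markers and 9 of 12 genes of all neurons, the highest wild-type array was instead replicate 1, and for 6 of 7 body wall muscle markers it was replicate 3. In the other marker lists it was replicate 3 for 3 of 5 pharynx, 3 of 8 intestine, 2 of 7 hypodermis, 2 of 4 germline and 1 of 3 GABA neuron genes. Among unc-37 arrays, replicate 2 was the highest for 29 members (45.3%), as for 30.8% of all genes and 38.3% of those bright genes. In the 9 secretory folding genes, unc-37 replicate 3 was the lowest unc-37 array for 8 and wild-type replicate 3 the highest wild-type array for 8. This is the same order as in hsp-3, and in hsp-4 as well. These counts describe the arrays, and their part in the changes above was not tested beyond leaving each array out.

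**Figure D5:**
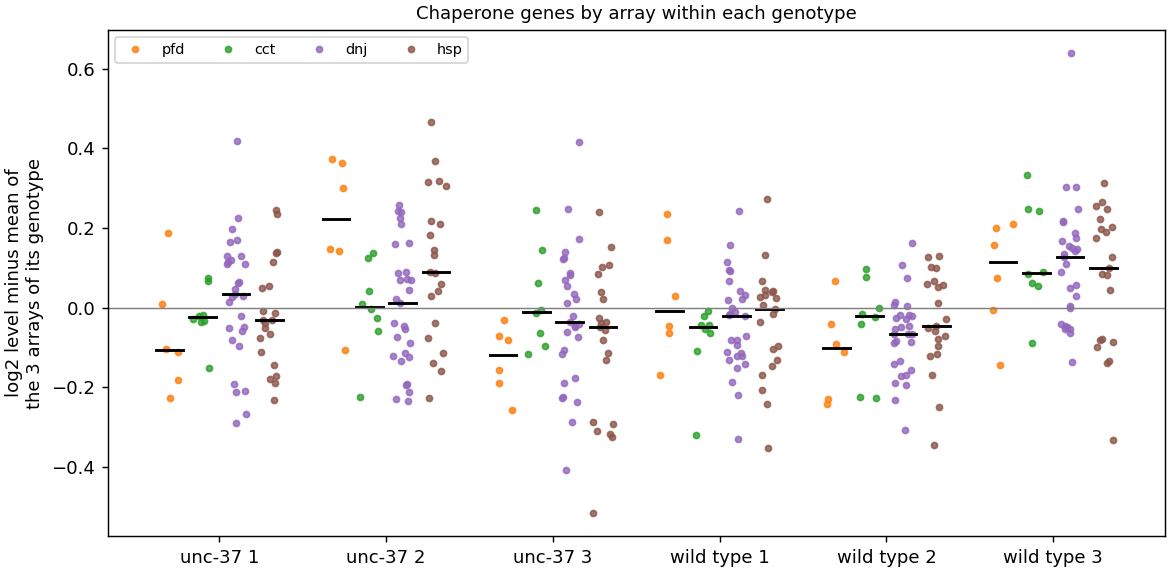
Log2 level of each chaperone gene on each array minus the mean of the 3 arrays of its genotype, coloured by family, with a black bar at the median of each family. The medians of all 4 families lie above 0 on wild-type replicate 3, and that of prefoldin stands highest on unc-37 replicate 2 (0.22).

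Where a chaperone gene had more than 1 probe set, these mostly pointed the same way. Of 24 such members, with 27 further probe sets, 20 had 1 sign throughout and 4 did not, namely cct-1, dnj-14, hsp-6 and hsp-60. A call differed between probe sets in 1 gene, dnj-8. The remaining 40 members, among them all prefoldin genes, dnj-21 and hsp-17, rest on 1 probe set each. Of the probe sets used, 39 are of the kind designed for 1 transcript, 19 of the _s_at kind, which can match several transcripts, and 6 of the _x_at kind.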

How the data were processed

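The authors deposited an intensity per probe set. The submitters' processing notes name RMA, a method that corrects background, normalizes arrays by quantiles and summarises probes; which version was run is not given in the sources used here. The scale is linear, judged by the values themselves (array medians 50.1 to 52.4, highest 12124 to 15148). Intensities were log2 transformed, with no further normalization and no filter. Of 22548 probe sets, 20766 named 1 gene in the platform's gene table, 887 several and 895 none. All 64 members' symbols are current RefSeq symbols.

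All 6 arrays entered a fit by limma 3.58.1 (lmFit, eBayes; R 4.3.3). Tests were two-sided, and p-values were adjusted by Benjamini-Hochberg across every probe set. The fit was tested on simulated data. Deviations from the genotype mean correlated at -0.187 to -0.103 for same-numbered arrays and at 0.047 to 0.098 for the other pairs. Deviations within a genotype are tied to each other by their mean. The sign of these correlations therefore cannot settle whether replicate numbers pair the arrays. Figures used matplotlib 3.10.9 in Python 3.11.15. No replicate was identical to another.

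Named were all pfd and cct genes, and of dnj and hsp the called genes, those brightest by class, the largest changes each way and genes whose probe sets differ. dnj-7, dnj-10, dnj-11, dnj-17, dnj-18, dnj-19, dnj-25, dnj-29, dnj-30, hsp-1, hsp-2, hsp-3, hsp-4, hsp-25, hsp-43, hsp-70, hsp-75 and the hsp-16 genes were named after their values were seen. Members and lists were chosen with earlier results of these data known. The listed genes daf-21 and vbp-1 are members under the symbols hsp-90 and pfd-3; F44E5.4, F44E5.5, unc-74, emc-6 and col-10 were listed but not analysed here.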

Additional observations from a re-analysis of the deposited data

How the results depend on the processing

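Called genes numbered 1156, against 1766 with array weights and 1863 at an adjusted p below 0.1, and 504 to 1339 with 1 array left out. Chaperone genes called higher numbered 4, against 9 with array weights, 9 at an adjusted p below 0.1, 1 with a prior variance that follows intensity, 1 with a fold of at least 1.5, and 0 to 7 with 1 array left out. Chaperone genes called lower numbered 0, against 2 with array weights, 2 at an adjusted p below 0.1, and 0 to 1 with 1 array left out. With the replicate number as a block, 867 genes were called and 0 chaperone genes by limma. At an unadjusted p below 0.05, 18 chaperone genes were still higher and 2 lower in that fit. Whether the numbers pair the arrays was not settled, so the block fit cannot be set aside on that ground. Filters on dim probe sets, a second quantile normalization, centring and averaged probe sets gave 4 or 5 chaperone genes higher and 0 lower.

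Of 634 values of 46 named genes under alternatives, 563 kept direction and side of the threshold, 38 lost a call, 13 gained one and 20 turned sign, none of these with a call. The turned values belong to 8 genes, none of them called, with 7 main changes between -0.08 and 0.06 and that of hsp-3 at 0.21 ± 0.23 (SE). With array weights dnj-27 was at 0.021, hsp-6 at 0.071 and hsp-16.41 at -0.054. With a second quantile normalization hsp-12.2 was at -0.042 and dnj-29 at -0.021. With averaged probe sets cct-1 was at 0.11, dnj-14 at -0.11 and hsp-6 at 0.021. With 1 array left out, changes ran from -0.186 to 0.049 for cct-1, -0.188 to 0.013 for dnj-27, -0.012 to 0.107 for dnj-14, -0.19 to 0.079 for hsp-6, -0.147 to 0.182 for hsp-12.2, -0.054 to 0.203 for dnj-29, -0.025 to 0.466 for hsp-3 and -0.067 to 0.065 for hsp-16.41. The cause was not tested. Signal limits the 18 members with a mean level below 6, among them cct-3, dnj-7, dnj-27, hsp-2, hsp-70 and the hsp-16 genes with a probe set of their own.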
